A study of Oryctolagus cuniculus with 9 samples.

Results

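Schwann cells are the glia of peripheral nerves: one form wraps single large axons in myelin, and another holds bundles of small axons without it. Their identity depends on the transcription factor SOX10, their survival on neuregulin signals received by the ERBB2 and ERBB3 receptor pair, and compact myelin is built from proteins such as PMP22 and MBP. After nerve injury they can leave the myelinating state and take up a repair state in which NGFR and GFAP are raised. The vocal fold is innervated by branches of the vagus nerve. The 8 genes described here were chosen by name as a Schwann cell and myelin set: S100B, GFAP, SOX10, ERBB3, NGFR, L1CAM, PMP22 and MBP, which are 8 of the 20525 genes of the deposited table. This set and the gene lists below were chosen with earlier results of these data known. Their counts beside those of all genes are therefore descriptions and not an independent test. All 8 passed the filter on low counts, as did 17344 genes in all.

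The data were polyA RNA sequencing of rabbit vocal fold in 3 groups of 3 libraries. In the SOT group the fold had been injured and given the SOT hydrogel, named in the series title as an antioxidant adhesive, and was taken 1 week after injury. In the untreated group the fold had been injured, given no treatment and taken at the same time. The normal group had no injury. The labels state neither strain, sex nor age, and give no word on whether the 3 libraries of a group came from separate animals, so p-values measure the spread between these libraries, which may be technical. Counts summed to between 48444181 and 49434268 in SOT libraries, between 49771566 and 50338111 in untreated libraries and between 44755718 and 45521838 in normal libraries. The labels call the cell type histiocytes, a name for tissue macrophages. Summed macrophage marker levels were 710 to 1192 CPM (read counts scaled to a common library size) in SOT libraries, 1635 to 1786 CPM in untreated libraries and 369 to 521 CPM in normal libraries. Keratins and other genes of stratified epithelium summed to 11510 to 17170, 14770 to 15110 and 12320 to 31810 CPM in SOT, untreated and normal libraries, above the macrophage sum in every library. In bulk tissue, fewer cells of a type and less RNA per cell cannot be told apart.

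Of the 8 genes, 4 fell in untreated injured folds relative to normal folds (S100B, GFAP, L1CAM and PMP22), and 4 did not pass the test (SOX10, NGFR, ERBB3 and MBP). The test was edgeR's quasi-likelihood test with Benjamini-Hochberg adjustment over all genes tested, at an adjusted p under 0.05. In that comparison 32.8% of all genes tested passed in either direction, 15.1% as lower and 17.7% as higher, and none of the 8 was higher. In SOT folds relative to normal folds 3 of the 8 fell (S100B, L1CAM and PMP22), where 16.7% of all genes passed in either direction, 7.67% as lower and 9.01% as higher, and none of the 8 was higher. Between SOT and untreated folds none of the 8 passed by edgeR, where 0.0115% of all genes did. In that comparison 3 of the 8 had an unadjusted p under 0.05 by edgeR, as did 2194 of the 17344 genes tested. DESeq2 called 1 of the 8, PMP22, and over all genes it called 229 higher and 453 lower. The median log2 fold change over the 8 genes was -1.58 in untreated minus normal, -1.50 in SOT minus normal and 0.36 in SOT minus untreated, and that over all genes tested was -0.02, 0.02 and 0.01. Groups did not overlap, with the injured group lower, for 6 of the 8 in untreated against normal folds (27.1% of all genes) and for 5 of the 8 in SOT against normal folds (18.6% of all genes). None of the 8 lay wholly above normal folds, where 28% and 17.8% of all genes did in untreated and SOT folds. In SOT against untreated folds PMP22 lay wholly above (7.4% of all genes) and MBP wholly below (12.5% of all genes). Both comparisons use the same 3 normal libraries.

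**Figure D1:**
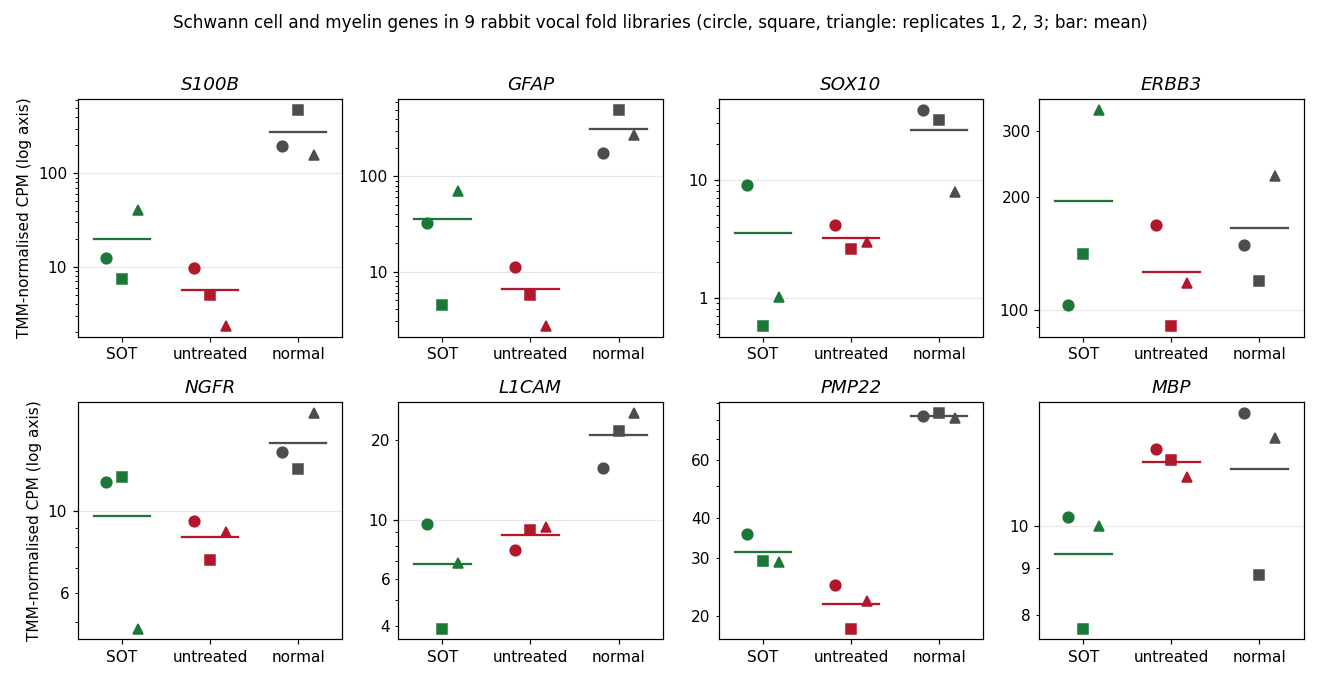
CPM, normalised by the trimmed mean of M values, on a log axis for the 8 genes in 3 SOT, 3 untreated and 3 normal libraries; circles, squares and triangles are replicates 1, 2 and 3, and bars are group means. S100B is at 40.2 CPM or below in the SOT and untreated libraries and at 156 CPM or above in the normal ones, while the 3 groups of ERBB3 overlap.

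S100B, a calcium-binding protein abundant in Schwann cells and also made by chondrocytes, lies on chromosome 14 at 163365662 to 163373805, plus strand, in the OryCun2.0 build. Its level was 12.35, 7.44 and 40.2 CPM in SOT libraries, 9.66, 4.99 and 2.35 CPM in untreated libraries and 194, 474 and 156 CPM in normal libraries. The normal libraries were all above the injured ones, and SOT replicate 3 was the highest of the 6 injured libraries. S100B was 48.5-fold lower in untreated than in normal folds (log2 fold change -5.60, SE 0.885, adjusted p = 0.00294 by edgeR), and the call stood with each library left out in turn, at log2 fold changes from -6.23 without untreated replicate 1 to -4.95 without normal replicate 2. It was 13.75-fold lower in SOT than in normal folds (log2 fold change -3.78, SE 0.81, adjusted p = 0.0189 by edgeR). This second call was lost without SOT replicate 1 (adjusted p = 0.0509) and without normal replicate 2 (log2 difference -3.13, adjusted p = 0.0526). Without SOT replicate 3 the log2 fold change was -4.78. Between SOT and untreated folds the log2 difference was 1.82, with a 95% interval of 0.09 to 3.55 and an adjusted p of 0.376, and the groups overlapped. That difference was 0.84 without SOT replicate 3 and 2.45 without untreated replicate 1.

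GFAP, an intermediate filament protein of astrocytes and of non-myelinating Schwann cells, lies on chromosome 19 at 45399899 to 45408683, plus strand. Its level was 32.2, 4.47 and 69.4 CPM in SOT libraries, 11.04, 5.73 and 2.68 CPM in untreated libraries and 177, 498 and 270 CPM in normal libraries. As for S100B, normal replicate 2 was the highest library and untreated replicate 3 the lowest. GFAP was 48.6-fold lower in untreated than in normal folds (log2 fold change -5.60, SE 1.04, adjusted p = 0.00549 by edgeR), in 3 of 3 libraries and with each library left out in turn; without untreated replicate 1 the log2 fold change was -6.23. In SOT minus normal folds the log2 difference was -3.16, with a 95% interval of -5.27 to -1.04; the groups did not overlap, but the adjusted p was 0.0507 by edgeR. That test passed when SOT replicate 3 was left out (log2 difference -4.09, adjusted p = 0.0335), and under 3 of 7 other settings, whose adjusted p ran from 0.000723 to 0.0925. In SOT minus untreated folds the log2 difference was 2.45, with a 95% interval of 0.37 to 4.52 and an adjusted p of 0.324; it was 1.53 without SOT replicate 3 and 3.07 without untreated replicate 1.

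S100B and GFAP followed each other across the libraries. The GFAP to S100B ratio of CPM was 2.61, 0.60 and 1.73 in SOT libraries, 1.14, 1.15 and 1.14 in untreated libraries and 0.91, 1.05 and 1.73 in normal libraries. The ratio in untreated folds lay within the range in normal folds (exact two-sided permutation test, p = 1 of a smallest possible 0.1, over 12 ratio tests). To describe which genes had a like profile, the log2 CPM of each gene was centred on its own mean over the 9 libraries, and the root mean square difference between genes was taken among 14109 other named genes. The genes closest to S100B were COL11A2, a cartilage collagen chain (0.29 log2 units), MIA, a secreted protein of cartilage and melanoma cells (0.33), and ACAN, the main cartilage proteoglycan (0.37). Those closest to GFAP were SUSD5 (0.48), MELTF (0.49) and SCUBE1 (0.53). The cartilage list as a whole was not uniformly close. S100B lay 0.29 to 2.59 from its 12 genes (median 1.18), with MATN1, a cartilage matrilin, at 1.62, and 1.29 to 2.29 from the 6 Schwann lineage genes other than the 8 (median 1.60). GFAP lay 0.58 to 2.85 from the cartilage genes (median 1.31), with MATN1 at 1.96, and 1.28 to 2.33 from the lineage genes (median 1.63). The ranges overlapped for both. These are descriptions over 9 libraries that share group differences, and no test was made on them.

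COL11A2 averaged 25.2 CPM in SOT libraries, 6.88 CPM in untreated libraries and 376 CPM in normal libraries, an order of groups like that of S100B. Of the 12 cartilage genes tested, 10 fell in untreated and 11 in SOT folds relative to normal folds (15.1% and 7.67% of all genes). Their median log2 fold changes were -4.72 and -3.26. Their summed level was 242 to 709 CPM in SOT libraries, 286 to 402 CPM in untreated libraries and 2718 to 5676 CPM in normal libraries. UCMA, a cartilage matrix protein, was at 0 in all 3 untreated libraries and so at least 40.5-fold lower there than in normal folds, against a floor of 3 counts per library; at that bound the list's median was still -4.72. The highest summed level was in normal replicate 2, as it was for S100B and GFAP, and in SOT replicate 3 among the injured libraries. The number of cartilage genes called lower in SOT folds was 7 without SOT replicate 1 or 2, 4 without normal replicate 1 and 2 without normal replicate 2, and it was 7 with the 6 libraries of the comparison alone. The part of cartilage RNA in the S100B and GFAP results was not tested.

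**Figure D2:**
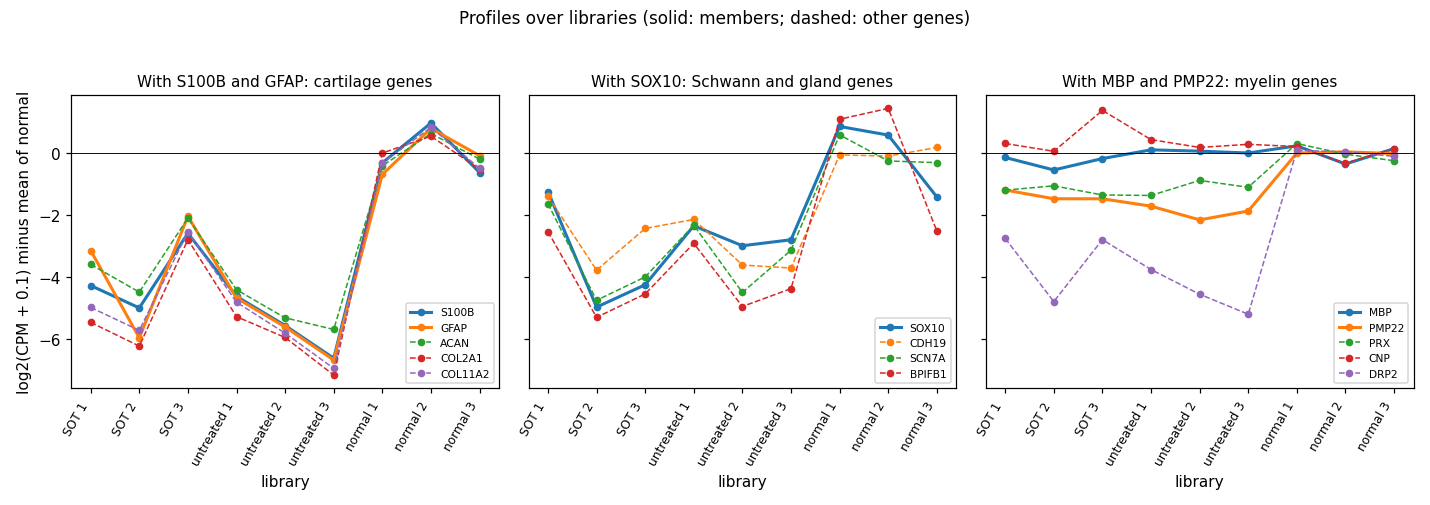
Log2(CPM + 0.1) of each gene minus its own mean in the normal libraries, over the 3 SOT, 3 untreated and 3 normal libraries. The left panel has S100B and GFAP with the cartilage genes ACAN, COL2A1 and COL11A2, the middle panel SOX10 with CDH19, SCN7A and the gland gene BPIFB1, and the right panel MBP and PMP22 with PRX, CNP and DRP2; in the left panel all 5 genes are low in the 6 injured libraries.

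SOX10, the transcription factor that sets Schwann cell and melanocyte identity and is also made in gland and myoepithelial cells, lies on an unplaced scaffold at 225867 to 235174, minus strand. Its level was 8.95, 0.58 and 1.02 CPM in SOT libraries, 4.10, 2.59 and 2.97 CPM in untreated libraries and 38.8, 31.95 and 7.93 CPM in normal libraries. Normal replicate 3 was lower than the other two normal libraries and lay below SOT replicate 1. In untreated minus normal folds the groups did not overlap and the log2 difference was -3.02, with a 95% interval of -5.35 to -0.70, but the adjusted p was 0.0509 by edgeR. That test passed under 6 of 7 other settings, with adjusted p between 0.00272 and 0.0491 in those 6, and when any 1 SOT library or normal replicate 3 was left out (log2 difference -3.46 and adjusted p = 0.0424 without normal replicate 3). With each other library left out it did not pass, at adjusted p up to 0.147. In SOT minus normal folds the log2 difference was -2.90 (SE 1.01, adjusted p = 0.0831 by edgeR). Without SOT replicate 1 it was -5.01 (adjusted p = 0.0118), and over the 7 other settings the adjusted p ran from 0.00648 to 0.157, with 4 of them passing. Between SOT and untreated folds the log2 difference was 0.12, with a 95% interval of -2.07 to 2.32.

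The genes nearest to SOX10 in profile were SPINK9 (0.58 log2 units), UGT8, an enzyme that makes the galactolipids of myelin (0.61), and CLDN10, a tight junction protein (0.61). SOX10 lay 0.71 to 1.82 from the 6 other Schwann lineage genes (median 1.01) and 0.85 to 2.45 from the 11 gland genes (median 1.73). BPIFB1, a secreted protein of airway glands, was at 896, 131 and 222 CPM in SOT libraries, 689, 167 and 250 CPM in untreated libraries and 11100, 14150 and 912 CPM in normal libraries. Like SOX10 it was lowest, among normal libraries, in replicate 3 and highest, among SOT libraries, in replicate 1. The summed gland list was 2235 to 5007 CPM in SOT libraries, 2179 to 4900 CPM in untreated libraries and 3305 to 26400 CPM in normal libraries. Of its 11 genes 1 rose and 3 fell in each comparison with normal folds (17.7% and 15.1% of all genes in untreated folds, 9.01% and 7.67% in SOT folds). In SOT folds the count that fell was 0 without normal replicate 1 and 1 without SOT replicate 2 or 3, untreated replicate 3 or normal replicate 2. Summed melanocyte genes were 62.2 to 91.0, 87.8 to 91.4 and 75.7 to 85.8 CPM in SOT, untreated and normal libraries. Of 6 tested 1, MLANA, rose in untreated folds (17.7% of all genes). The part of gland RNA in the SOX10 values was not tested.

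ERBB3, the neuregulin-binding receptor of Schwann cells that is also made by epithelium, lies on chromosome 4 at 39637792 to 39661767, plus strand. Its level was 103, 141 and 343 CPM in SOT libraries, 169, 90.5 and 118 CPM in untreated libraries and 149, 120 and 228 CPM in normal libraries. The 3 groups overlapped. The log2 difference was -0.40 in untreated minus normal folds (95% interval -1.44 to 0.65), 0.24 in SOT minus normal folds (-0.80 to 1.29) and 0.64 in SOT minus untreated folds (-0.41 to 1.69). Without SOT replicate 3, the highest library, the last 2 were -0.40 and 0.0015. Its nearest genes in profile were GRAMD1C (0.14 log2 units), PDZK1IP1 (0.15) and C8H12orf4 (0.18).

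NGFR, the neurotrophin receptor that marks immature and repair Schwann cells, lies on chromosome 19 at 38083773 to 38101586, minus strand, and the table describes its model as a low-quality protein. Its level was 12, 12.4 and 4.81 CPM in SOT libraries, 9.41, 7.39 and 8.77 CPM in untreated libraries and 14.5, 13 and 18.5 CPM in normal libraries. Normal libraries were above all injured ones, and the 3 untreated libraries lay close together while SOT replicate 3 was low. The log2 difference in untreated minus normal folds was -0.85, with a 95% interval of -1.61 to -0.08; its unadjusted p was 0.0343 and its adjusted p 0.0851 by edgeR. Without SOT replicate 3 it passed (adjusted p = 0.00869), as it did by DESeq2 (0.0415) and with the 6 libraries of the comparison alone (0.0122); over the 7 other settings the adjusted p ran from 0.0122 to 0.12. In SOT minus normal folds the log2 difference was -0.66 (95% interval -1.42 to 0.11, adjusted p = 0.207 by edgeR). Its nearest genes in profile were GNAL (0.15), NDRG4 (0.22) and SLC35G1 (0.24).

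L1CAM, an adhesion molecule of axons and of non-myelinating Schwann cells, lies on an unplaced scaffold at 552977 to 574917, plus strand. Its level was 9.63, 3.91 and 6.91 CPM in SOT libraries, 7.74, 9.17 and 9.42 CPM in untreated libraries and 15.7, 21.6 and 25.4 CPM in normal libraries. All 3 normal libraries were above the 6 injured ones. It fell in untreated relative to normal folds (log2 fold change -1.25, SE 0.32, adjusted p = 0.0185 by edgeR). That call was lost, with an adjusted p of 0.0508 to 0.0579, when any of the 3 untreated libraries, normal replicate 2 or normal replicate 3 was left out. It fell in SOT relative to normal folds (log2 fold change -1.62, SE 0.32, adjusted p = 0.0147 by edgeR), and this call held with each library left out, at adjusted p up to 0.0452. Its nearest genes in profile were GAPDH (0.25 log2 units), PINK1 (0.25) and LRRC2 (0.27).

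PMP22, a membrane protein of compact peripheral myelin that fibroblasts and epithelial cells also make, lies on chromosome 19 at 4699372 to 4732225, plus strand. Its level was 35.8, 29.4 and 29.4 CPM in SOT libraries, 24.9, 18.3 and 22.3 CPM in untreated libraries and 82.0, 84.2 and 81.1 CPM in normal libraries. The 3 groups did not overlap, with SOT between the other two. PMP22 was 3.78-fold lower in untreated than in normal folds (log2 fold change -1.92, SE 0.14, adjusted p = 0.000219 by edgeR) and 2.62-fold lower in SOT than in normal folds (log2 fold change -1.39, SE 0.14, adjusted p = 0.00249 by edgeR). Both calls held with each library left out and under all 7 other settings. In SOT minus untreated folds the log2 difference was 0.53 (95% interval 0.22 to 0.84), with an adjusted p of 0.198 by edgeR and 0.0151 by DESeq2; over the 7 other settings it ran from 0.0151 to 0.299, and no setting but DESeq2 called it. Its nearest genes in profile were ITGA10 (0.16 log2 units), KIAA1191 (0.16) and FOXF2 (0.17).

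MBP, the protein that binds the cytoplasmic faces of the myelin membrane, lies on an unplaced scaffold at 195894 to 272317, minus strand, as 6 transcript models pooled in a single row, so the myelin isoforms and others are not separated. Its level was 10.2, 7.72 and 9.997 CPM in SOT libraries, 12.2, 11.8 and 11.3 CPM in untreated libraries and 13.3, 8.84 and 12.5 CPM in normal libraries. Untreated libraries lay within the range of the normal ones and above the SOT ones, and no comparison passed by edgeR (adjusted p of 0.93, 0.288 and 0.501 for untreated minus normal, SOT minus normal and SOT minus untreated). The log2 difference was 0.03 in untreated minus normal folds (95% interval -0.40 to 0.46), -0.31 in SOT minus normal folds (-0.74 to 0.12) and -0.34 in SOT minus untreated folds (-0.77 to 0.09). Its nearest genes in profile were CAB39 (0.11), TUBB4A, a tubulin (0.11), and TSC22D4 (0.13).

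The ratio of PMP22 to MBP CPM was 3.49, 3.81 and 2.94 in SOT libraries, 2.04, 1.55 and 1.97 in untreated libraries and 6.15, 9.52 and 6.48 in normal libraries. The 3 groups of this ratio did not overlap, with log2 differences of -1.98 for untreated minus normal, -1.09 for SOT minus normal and 0.88 for SOT minus untreated. Each gave p = 0.1 in an exact two-sided permutation test, the smallest that 3 against 3 can reach, and 0.171 after adjustment over the 12 ratio tests. A design of 3 against 3 cannot reach a p under 0.05 in this test.

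**Figure D3:**
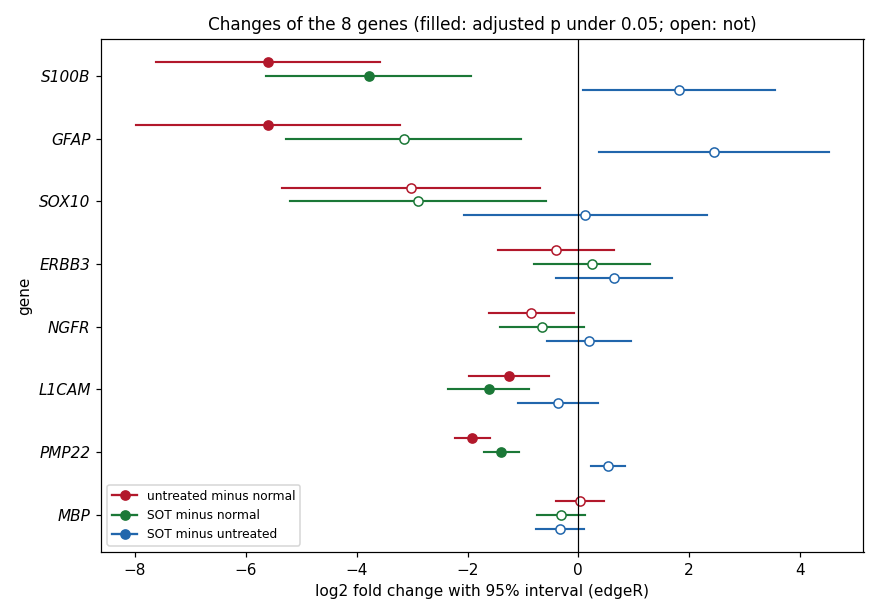
Log2 fold change of the 8 genes in the 3 comparisons (SOT minus untreated, untreated minus normal, SOT minus normal) with 95% intervals; filled points have an adjusted p under 0.05 in edgeR's quasi-likelihood test. S100B and GFAP lie at -5.60 in untreated minus normal, and MBP at 0.03.

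Deposited FPKM, which are scaled for gene length as well as library size and so allow levels of different genes to be compared, put the 8 genes in different orders in the 3 groups. In SOT libraries the means of ERBB3 (31.2 FPKM), S100B (21.9), PMP22 (20.97), GFAP (11.8) and MBP (7.69) stood in that order, but each overlapped with the next, and PMP22 was above ERBB3 in SOT replicate 1 (22.8 against 15.6 FPKM). MBP lay above NGFR in all 3, with NGFR, L1CAM and SOX10 at 2.75 FPKM or less. In untreated libraries the order was ERBB3 (18.0 FPKM) and PMP22 (13.2), which overlapped, then MBP (8.82), with S100B at 5.53 FPKM and GFAP at 1.94 FPKM. PMP22 did not overlap with MBP, but from MBP down each gene overlapped with the next. S100B was above MBP in untreated replicate 1 (9.47 against 9.10 FPKM). In normal libraries S100B was highest (276 FPKM), followed by GFAP (97.1), PMP22 (51.1) and ERBB3 (24.3), with each of these 4 free of overlap with the next gene down. MBP was above 53.1% of the genes tested in SOT libraries, 58.7% in untreated libraries and 58.8% in normal libraries. S100B was above 78.5% of the genes tested in SOT libraries, 48% in untreated libraries and 98.8% in normal libraries. In normal folds MBP, SOX10, NGFR and L1CAM each overlapped with the next in the order.

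**Figure D4:**
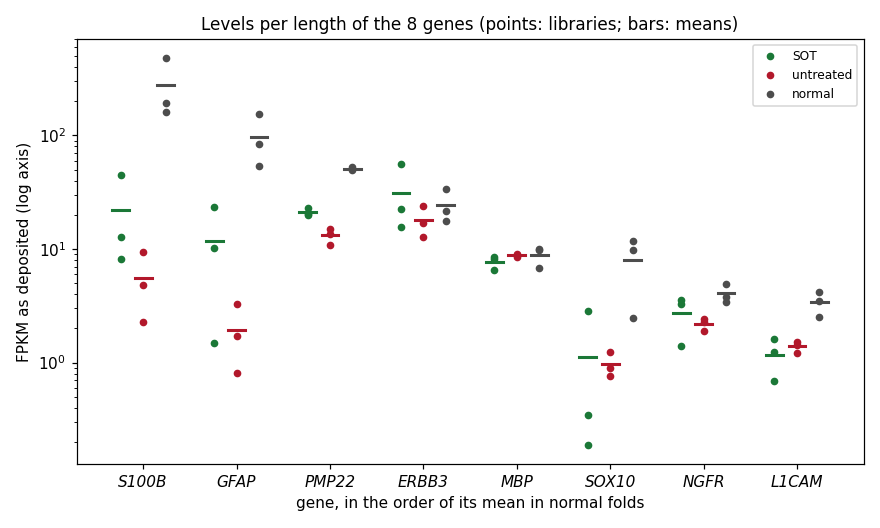
FPKM of the 8 genes on a log axis in SOT, untreated and normal libraries. S100B averages 21.9, 5.53 and 276 FPKM in the 3 groups, and MBP 7.69, 8.82 and 8.85 FPKM.

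Other genes of the nerve sheath were counted in the same way. Of 6 further Schwann cell lineage genes 4 fell in untreated folds and 3 in SOT folds relative to normal folds (median log2 fold changes -2.78 and -2.36). Of 22 further myelin genes 11 fell and 2 rose in untreated folds, and 10 fell in SOT folds (medians -2.09 and -1.79). Of 15 further node and axon-glia adhesion genes 10 fell and 1 rose in untreated folds, and 8 fell and 1 rose in SOT folds (medians -1.69 and -1.27). The gene that rose in SOT folds, CHL1, lost its call without SOT replicate 2, untreated replicate 3 or normal replicate 1 or 2. Pooled over these lists, 42 genes other than the 8 were tested: 24 fell and 3 rose in untreated folds, and 20 fell and 1 rose in SOT folds, against 15.1% and 7.67% of all genes that fell. None of the 42 passed between SOT and untreated folds by edgeR. There 6 of the 42 had an unadjusted p under 0.05, as did 2194 of the 17344 genes tested. DESeq2 called 3 of the 42, and over all genes it called 229 higher and 453 lower. With the members included, 7 of 12 lineage, 12 of 24 myelin and 11 of 16 node genes fell in untreated folds. Without untreated replicate 3 these were 4, 7 and 7, and without untreated replicate 2 there were 4 lineage genes. Over all genes 2618 were lower in untreated folds, but 1230 without untreated replicate 3 and 1416 without untreated replicate 2. In SOT folds 5 lineage, 11 myelin and 9 node genes fell. Without normal replicate 2 these were 1, 5 and 5, and the count over all genes was 652, against 1331 with it. Leaving out normal replicate 1 gave 2 lineage genes, and leaving out SOT replicate 2, SOT replicate 3, untreated replicate 3 or normal replicate 3 gave 3. Leaving out SOT replicate 3 or normal replicate 1 gave 5 myelin genes, leaving out untreated replicate 3 gave 6 and leaving out normal replicate 3 gave 7, and the node count was 5 without SOT replicate 2. The lineage count in SOT folds was 8 by DESeq2, 9 by limma with either pseudocount and 2 with the 6 libraries of the comparison alone, where the myelin count was 7. No test of the lists themselves was made.

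CDH19 was at 5.42, 0.95 and 2.58 CPM in SOT libraries, 3.18, 1.08 and 1.005 CPM in untreated libraries and 13.8, 13.5 and 16.3 CPM in normal libraries. All injured libraries were below all normal ones. Its log2 fold change was -3.05 in untreated minus normal folds (SE 0.67, adjusted p = 0.0104 by edgeR), and the call held with each library left out. In SOT folds it also fell (log2 fold change -2.29, adjusted p = 0.0447 by edgeR), a call lost, at adjusted p up to 0.101, without SOT replicate 2 or 3, untreated replicate 2 or 3 or any 1 normal library. SCN7A, a sodium channel relative made by non-myelinating Schwann cells, was at 7.60, 0.79 and 1.39 CPM in SOT libraries, 4.67, 0.95 and 2.62 CPM in untreated libraries and 35.9, 19.97 and 19.2 CPM in normal libraries. The injured libraries were again below the normal ones. It fell in untreated folds (log2 fold change -3.19, adjusted p = 0.0275 by edgeR), a call lost, at adjusted p up to 0.095, without untreated replicate 2 or 3 or normal replicate 1 or 2, and did not pass in SOT minus normal folds (log2 difference -2.94, adjusted p = 0.0549 by edgeR), though it passed without SOT replicate 1 (adjusted p = 0.0137). SOT replicate 1 had the highest level of the SOT libraries for 8 of the 12 Schwann lineage genes and 17 of the 24 myelin genes, against 36.5% of all genes tested. It was also highest for 9 of 10 macrophage and 7 of 11 gland genes, for 4 of the 8 members and for 0 of 12 cartilage genes. Among untreated libraries, replicate 1 was highest for 11 of 12 lineage, 18 of 24 myelin and 13 of 13 muscle genes, against 40.5% of all genes. The same library was highest for 7 of the 8 members, 9 of 12 cartilage, 9 of 11 gland and 2 of 10 macrophage genes.

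Among myelin genes DRP2, a dystrophin relative that links Schwann cells to the basal lamina, fell in untreated and in SOT folds (log2 fold changes -4.56 and -3.27, adjusted p = 0.00192 and 0.0112 by edgeR). CMTM5 fell in both as well, with log2 fold changes of -4.601 in untreated folds and -4.325 in SOT folds. PRX, the periaxin scaffold that holds DRP2 at the Schwann cell membrane, fell less (log2 fold changes -1.14 and -1.24). MAG, an adhesion protein of the inner myelin layer, was at 0 in all SOT libraries and at least 12.4-fold lower there than in normal folds, counted against a floor of 3 counts per library; its call was lost in 5 of the 9 fits without a library in untreated folds and in 7 of 9 in SOT folds. CNP, another myelin enzyme, did not pass in untreated minus normal folds (log2 difference 0.28, adjusted p = 0.544 by edgeR), like MBP. Both calls upward, EGR2 and FGD4, had log2 fold changes of 2.09 and 1.59 in untreated folds, and EGR2, a transcription factor of the myelinating state that immune cells also use, lost its call in 4 of the 9 fits without a library.

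In the node and axon-glia adhesion list, NRCAM, GLDN, CNTN1 and NFASC had the largest changes among the genes called in untreated folds. They were picked on that comparison, so their fall there is not a separate result. Their log2 fold changes were -4.61, -3.43, -3.42 and -3.03, and each call held with every library left out. These proteins bind sodium channel clusters or hold the paranodal loops of myelin to the axon. In SOT folds their log2 fold changes were -3.65, -3.42, -2.23 and -2.07, all with adjusted p under 0.05 by edgeR; the NFASC call was lost without SOT replicate 2 (0.0646) and without normal replicate 2 (0.0718). CNTN1 was at 63.8, 43.4 and 67.0 CPM in SOT libraries, 33.3, 21.1 and 21.8 CPM in untreated libraries and 224, 341 and 251 CPM in normal libraries. The 3 groups of CNTN1 did not overlap. Of the 15 genes of this list other than the 8, 4 did not pass in untreated folds. EPB41L3 rose there (log2 fold change 0.65, adjusted p = 0.00566 by edgeR). The part of other tissues in the values of this list was not tested.

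Of 14 repair Schwann cell genes tested, 3 rose (LIF, CLCF1 and RUNX2) and none fell in untreated folds by edgeR, and 2 rose in SOT folds, where 17.7% and 9.01% of all genes tested rose. At an unadjusted p under 0.05 by edgeR, and by DESeq2, 1 was lower in untreated folds, NGFR. Of the 17344 genes tested, 7749 had an unadjusted p under 0.05 in either direction, and DESeq2 called 3626 lower. Leaving out untreated replicate 3 gave 0 calls in untreated folds, and leaving out untreated replicate 1 or 2 or normal replicate 1 or 3 gave 1. In SOT folds 0 were called without SOT replicate 2, untreated replicate 3 or any 1 normal library, and 1 without untreated replicate 1 or 2. JUN, the transcription factor that drives the repair state in nerve, was at 68.8, 107 and 53.9 CPM in SOT libraries, 72.7, 59.8 and 66.4 CPM in untreated libraries and 71.8, 127 and 56.7 CPM in normal libraries, with overlapping groups. Genes of this list are also made by fibroblasts and leukocytes.

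Among neuregulin pathway genes, NRG1, the ligand that drives Schwann cell growth and myelination, rose in untreated and in SOT folds (log2 fold changes 1.48 and 1.58, adjusted p = 0.00562 and 0.0104 by edgeR). Its level was 85.9, 80.0 and 37.2 CPM in SOT libraries, 56.5, 67.6 and 65.1 CPM in untreated libraries and 21.3, 23.3 and 23.2 CPM in normal libraries, so all injured libraries were above all normal ones. ADGRG6, a receptor needed for Schwann cells to begin myelination, fell in both (log2 fold changes -1.45 and -1.41). ERBB2, the partner of ERBB3, had a log2 difference of -0.51 in untreated minus normal folds (adjusted p = 0.0771 by edgeR). Of 12 genes of the list 2 rose and 4 fell in untreated folds (17.7% and 15.1% of all genes tested). In SOT folds 2 rose and 2 fell (9.01% and 7.67% of all genes tested). The count that fell in untreated folds was 1 without untreated replicate 2 or 3 and 2 without normal replicate 1 or 2, and that in SOT folds was 1 without SOT replicate 1 or 2 or normal replicate 1 or 2.

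Of 11 neurotrophin and receptor genes 4 fell and 1 rose in untreated folds (15.1% and 17.7% of all genes tested). In SOT folds 1 fell (7.67% of all genes tested). The count that fell in SOT folds was 2 without untreated replicate 2, 2 by limma with a pseudocount of 0.1, and 3 by DESeq2 and by limma with a pseudocount of 1. NTRK2 and NTRK3, the receptors for brain-derived neurotrophic factor and neurotrophin-3, fell in untreated folds (log2 fold changes -2.67 and -4.23), and NTRK2 fell in SOT folds as well (-1.97, adjusted p = 0.00914 by edgeR). In the axon list 13 of 18 genes in the table passed the filter. In untreated folds 1 fell, SCN9A (log2 fold change -3.62), and 1 rose, PRPH (15.1% and 17.7% of all genes tested). The count that fell was 3 without untreated replicate 1 and 2 without SOT replicate 3, untreated replicate 3 or normal replicate 1 or 3, and under the other settings it reached 6, by DESeq2. PRPH, a filament of peripheral axons, was at 0 in normal libraries and averaged 0.20 CPM in untreated libraries. Against a floor of 3 counts per library it was at least 3.03-fold higher there. Its call was lost in 8 of the 9 fits without a library. The summed axon list was 73.5 to 112, 73.4 to 90.2 and 77.4 to 113 CPM in SOT, untreated and normal libraries.

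**Figure D5:**
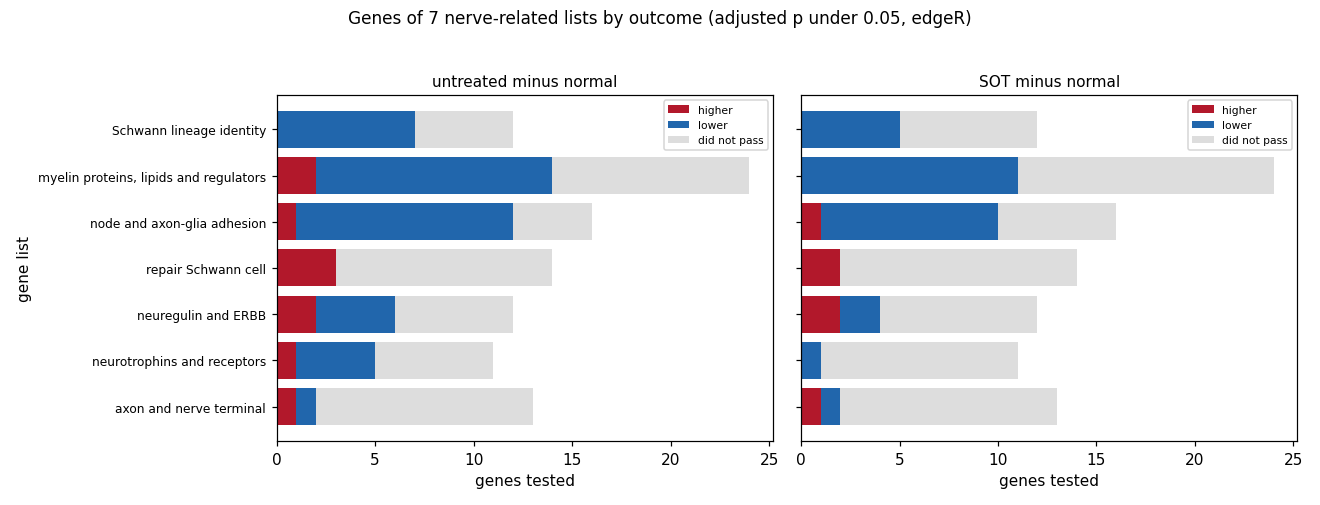
Counts of genes that were higher, lower or did not pass (edgeR, adjusted p under 0.05) in 7 nerve gene lists, for untreated minus normal and SOT minus normal. The myelin list has 12 of 24 genes lower in untreated folds, and the repair list has none lower.

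Muscle and macrophage RNA also differed between injured and normal folds. Of 13 skeletal muscle genes 7 fell in untreated folds and 2 in SOT folds relative to normal folds, with summed levels of 1856 to 10080 CPM in SOT, 909 to 9723 CPM in untreated and 22680 to 28260 CPM in normal libraries. Of 10 macrophage genes 9 rose in untreated folds and 8 in SOT folds. Of 9 adipocyte genes 1 rose in each and 3 and 2 fell, and of 13 stratified epithelium genes 3 rose in each and 2 and 1 fell, in untreated and SOT folds. Of all genes tested 17.7% rose and 15.1% fell in untreated folds, and 9.01% rose and 7.67% fell in SOT folds. Summed adipocyte levels overlapped between groups (361 to 537, 492 to 524 and 429 to 508 CPM in SOT, untreated and normal libraries). The epithelial sums overlapped too. In untreated folds 1 muscle gene fell when untreated replicate 3 was left out, and 2 when untreated replicate 2 or any 1 normal library was. In SOT folds it was 1 without SOT replicate 1 or 2, untreated replicate 3 or any 1 normal library, and 7 by DESeq2. Epithelial genes that fell in untreated folds were 1 without untreated replicate 2 or 3, and those that rose in SOT folds were 0 without normal replicate 1 or 2. The part of these tissues in the results for the 8 genes was not tested.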

How the data were processed

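Per the labels, libraries were made from polyA RNA of vocal fold tissue. The submitters' processing notes name cutadapt 1.9, HISAT2 2.0.4, StringTie 1.3.4d, edgeR and the OryCun2.0 build, with no roles. The authors deposited read counts and FPKM per gene; the counting rule is not given in the sources used here. Gene symbols are those of the deposited table, and chromosome numbers follow the build's accession numbering. Counts were fitted in R 4.3.3 with edgeR 4.0.16: filterByExpr by group (minimum count 10), trimmed mean of M values, 1 mean per group over all 9 libraries, quasi-likelihood test and Benjamini-Hochberg adjustment over 17344 genes. The standard error is the absolute log2 fold change over the root of F. Groups came from the labels. CPM uses the same normalisation; the profile plot adds 0.1. The members and lists were chosen with earlier results of these data known. From each list up to 4 genes with the largest change that passed in untreated minus normal folds could be named, and per member the 3 genes nearest in profile; other list genes named were chosen after their values were seen. 5 list genes took symbols from RefSeq. Alternatives used DESeq2 1.42.0 and limma 3.58.1. The fit was tested on simulated data. No pair of libraries agreed within sampling noise. Some genes of the lists are counted but not reported here by name.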

Additional observations from a re-analysis of the deposited data

How the results depend on the processing

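Counts of the 8 genes called were within 1.5 times of the reported ones in untreated against normal folds under all 7 other settings, between 4 and 6 lower. In SOT against normal folds 5 were called lower by DESeq2 and by limma on log2(FPKM + 0.1) or log2(FPKM + 1), against 3. Between SOT and untreated folds DESeq2 called 1. Over all genes, SOT against untreated gave 0 higher and 2 lower, but 229 and 453 by DESeq2, 4 and 23 by limma with + 1, 0 and 0 by limma with + 0.1, and 0 lower with the 6 libraries of the comparison alone. SOT against normal gave 1563 higher and 1331 lower, but 2474 and 2345 by DESeq2 and 692 and 886 with those 6 libraries alone. The cause was not tested. Limma with + 0.1 moved the median log2 fold change of all genes by 0.12 in SOT minus untreated folds. Over these settings 57 of 588 list counts moved by over 1.5 times.

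With 1 library left out, genes called in SOT against untreated folds ran from 0 to 76 higher and from 0 to 321 lower, the highest both without SOT replicate 1. In untreated against normal folds they ran from 1915 to 3254 higher and from 1230 to 2785 lower, the lowest both without untreated replicate 3. In SOT against normal folds they ran from 577 to 1987 higher and from 558 to 1235 lower, the lowest both without normal replicate 1. Of the 8 genes, 3 to 6 were lower in untreated and 2 to 4 in SOT against normal folds. Differences that changed sign were not called: SOX10 in SOT minus untreated folds (-0.54 and -0.10 by limma with + 0.1 and + 1; -1.98 to 0.65 with 1 library left out), NGFR in the same comparison (-0.0020 to 0.56), MBP in untreated minus normal folds (-0.13 to 0.14) and ERBB3 in SOT minus normal folds (-0.40 to 0.56).

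Replicate numbers were tried as a block. The values did not settle whether samples of 1 number deviated together. Of 9 same-number pairs 2 had a correlation over 0.1 (range -0.05 to 0.27), and 5 of 9 samples correlated best with their own number. With the replicate block 5 of the 8 genes were lower in untreated and 4 in SOT against normal folds. Genes called in SOT against untreated folds were 0 higher and 0 lower, those in untreated against normal folds 2893 and 2633, and those in SOT against normal folds 1236 and 1389. SOX10 in SOT minus untreated folds was -0.63 with the block. The block gave 6 cartilage genes lower in SOT against normal folds, against 11 without it, and 6 muscle genes, against 2; SCN7A passed there with it (adjusted p = 0.0137).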
